A study of Mus musculus with 8 samples.

Results

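Fut8 encodes the Golgi enzyme that transfers fucose from GDP-fucose to the innermost N-acetylglucosamine of N-linked glycans, the modification called core fucose. Growth factor receptors, integrins and the N-glycan of antibody Fc regions carry it, and loss of the enzyme alters signalling through receptors for TGF-β and EGF. In mast cells, the high-affinity IgE receptor and c-Kit are themselves N-glycosylated surface proteins. The data described here are not expression values: they are the levels of single cytosines inside the Fut8 span that stayed cytosine after bisulfite treatment of poly(A) RNA.

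The members were all listed sites on chromosome 12 between 77237430 and 77475998 (GRCm38), the RefSeq span of Fut8, which is 238569 bases long and lies on the plus strand. This rule found 288 sites of 8492 in the whole table (3.39%), and the gene was chosen by the number and levels of its listed sites, so the count and the levels below are descriptions and are not tested. The cells were bone marrow derived mast cells, FcεRI+ c-Kit+, grown from C57BL/6 mouse marrow with IL-3 and SCF. The labels describe 8 libraries, 4 from wild-type and 4 from Tet2-/- cells, as 2 biological by 2 technical replicates; Tet2 oxidises 5-methylcytosine. The deposited table lists sites picked by the authors for their presence in Tet2-deficient cells, with levels in the 4 Tet2-/- libraries. Levels in wild-type cells were not analysed here, and nothing below compares genotypes. Because the authors picked the sites on these same libraries, their being listed is no separate support for a link to Tet2. The labels do not say whether the biological replicates came from separate mice. Read numbers were not analysed, which leaves the exact depth of every level unknown. Many levels equal fractions of small whole numbers: site 77280820 read 100%, 66.7%, 83.3% and 83.3%. Levels of single sites may thus rest on few reads and be imprecise. The lowest level in the table is 10%, and the lowest of any Fut8 site in any library was 15%.

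A level is the fraction of reads that kept a cytosine at a position, so unconverted cytosine counts in it as well as 5-methylcytosine. Fut8 sites lay in 3 short stretches that together covered 2681 bases, or 1.12% of the gene span. The upstream stretch, chr12:77272151-77273025, had 61 sites in 875 bases and began 34.7 kb inside the gene. A middle stretch, chr12:77280597-77281496, had 105 sites in 900 bases and began 7.57 kb beyond the end of the first. The downstream stretch, chr12:77381727-77382632, had 122 sites in 906 bases, after a gap of 100 kb with no listed site. The nearest listed sites outside the span were 25.5 Mb to the left and 4.77 Mb to the right. Exon positions and genome sequence were not used here, so whether these stretches are exonic or intronic is not stated.

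Although the Fut8 sequence itself could not be read at the sites, the spacing of listed sites could be set against sequence that was at hand. RefSeq start windows of GRCm38.p6 (250 bases before to 50 after a transcript start) gave 32841 sequences of 300 bases. Each run of at least 10 sites spanning up to 90 bases was laid on every window, on both strands, and scored by the shared share: positions that are both a site and a cytosine, divided by positions that are either. A score of 0.75 or more was taken as a match, a setting chosen after the data were seen. The first 18 sites of the middle stretch, within 94 bases, are shown first because all of them found a cytosine over a long run. They were searched as a run of their own. All 18 fell on cytosines of a window of 1700019D03Rik that has 21 cytosines over that length. One start window of Fut8 itself, of a transcript that starts 27.5 kb beyond the downstream stretch, held the same spacing on its opposite strand, with 17 of 18 sites on its 20 cytosines. Capitals mark cytosines that coincide with a listed Fut8 site; every sequence printed is that of the reference window named, not of the Fut8 stretch.
1700019D03Rik window, chr1:52992711-52992804, plus strand: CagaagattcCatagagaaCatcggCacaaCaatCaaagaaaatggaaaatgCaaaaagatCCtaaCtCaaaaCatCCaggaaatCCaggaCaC
Fut8 start window, chr12:77409979-77410072, minus strand: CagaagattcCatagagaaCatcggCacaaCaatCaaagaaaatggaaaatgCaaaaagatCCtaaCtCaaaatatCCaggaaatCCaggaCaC

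Of the 32841 windows, 12 (0.0365%), of 12 genes, held this 18-site spacing at a score of 0.75 or more. Read on the minus strand, the same 18 sites reached a score of 0.50 at best and matched 0 windows. The fuller match was thus with the sites read on the plus strand, the strand that has the sequence of the Fut8 transcript. From general knowledge of mouse repeats, and not from an annotation used here, the run is part of L1, the long interspersed element that is present in very many copies across the mouse genome and in many introns.

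Further matches came from the end of the middle stretch and from the downstream stretch. A run of 17 sites from 77281318 to 77281390 had 15 on the 17 cytosines of a start window of LOC115487412 (score 0.789, against 0.579 on the minus strand). In the downstream stretch, 19 sites from 77382535 to 77382623 all fell on cytosines of a start window of Gm34353 that has 21 (score 0.905, against 0.536). Another 15 sites from 77382097 to 77382159 covered all 12 cytosines of a window of A230098N10Rik (score 0.80, against 0.632). These windows are printed because they match runs of high and of middle level. From the same general knowledge, and with no annotation used, they too resemble L1.
LOC115487412 window, chr10:78767991-78768063, plus strand: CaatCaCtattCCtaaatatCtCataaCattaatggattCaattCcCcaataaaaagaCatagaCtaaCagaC
Gm34353 window, chr1:137993611-137993699, plus strand: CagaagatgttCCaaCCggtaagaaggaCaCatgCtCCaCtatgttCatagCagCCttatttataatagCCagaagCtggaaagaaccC
A230098N10Rik window, chr5:30031174-30031236, plus strand: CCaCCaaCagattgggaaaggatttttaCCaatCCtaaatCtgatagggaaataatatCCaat

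In all, 6 of 23 runs of Fut8 sites matched on the plus strand and 1 of 23 on the minus strand. Neighbouring runs overlap, so these are not counts of separate places. The matched run from 77382572 to 77382632, for example, overlaps the one on the Gm34353 window. The minus match was a short run inside the first 18 sites of the middle stretch, 10 sites in 32 bases, which scored 1.00 on the plus and 0.818 on the minus strand. With runs of up to 120 bases, 3 of 19 matched on the plus strand and 0 on the minus strand. With runs of up to 60 bases, which match more easily, it was 12 of 27 on the plus strand (104 sites, 10 of them upstream) and 5 of 27 on the minus strand (46 sites). Matched plus-strand runs held 71 of the 231 Fut8 sites searched (30.7%), 35 in the middle and 36 in the downstream stretch. At up to 90 bases the upstream stretch had 0 matched sites: its best score was 0.636, near its minus value of 0.583. Across all stretches with such runs, and counting either strand, 36.6% of sites searched lay in matched runs, in 85 of 138 stretches, so a match of this kind was common in the table and no feature of Fut8 alone. The strands were not counted apart over all stretches. The plus and minus counts given above thus have no background and are no result about Fut8. A stretch without a match says only that the start windows hold no such spacing. Reads from other copies of a repeated sequence cannot be told apart from reads of Fut8 RNA with the values used here, and how the authors placed reads that fit several loci is not given in the sources used here.

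**Figure D1:**
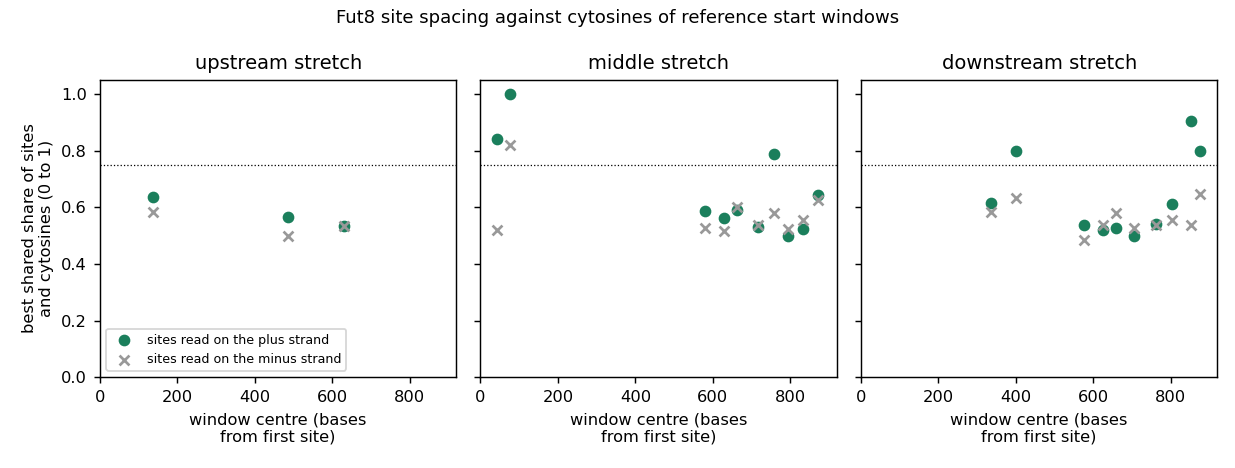
Best shared share of sites and cytosines (vertical axis, 0 to 1) for each run of at least 10 Fut8 sites within 90 bases, against the centre of the run in bases from the first site of its stretch (horizontal axis). Green circles read the sites on the plus strand, grey crosses on the minus strand, and the dotted line is the score of 0.75; 6 circles and 1 cross lie above it, none of them in the upstream stretch.

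Transcript starts of Fut8 itself had no listed site. RefSeq gives 4 start windows, all on the plus strand, and 0 sites fell in any of them. Stretches with sites covered only 1.12% of the gene span, and the share of all start windows with a site was not counted. The 0 is therefore no result about transcript starts. The window from 77238489 to 77238788 is rich in cytosine, with 117 cytosines and 39 CG pairs in its 300 bases, and its transcript start lies 33.4 kb before the upstream stretch. A window from 77388614 to 77388913 has 60 cytosines and 0 CG pairs, and its transcript start lies 6.23 kb beyond the end of the downstream stretch. It shares an unbroken run of 81 bases with the window from 77409891 to 77410190, the Fut8 window printed in part above. Of the 32841 windows, 3 hold that run of 81 bases.

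Over all 288 sites the mean level was 67.5% in technical library 1 and 63.5% in technical library 2 of biological replicate 1. It was 62.7% and 67.4% in the same order in replicate 2. Library 1 of the first replicate and library 2 of the second were thus the high ones, and the biological replicates overlapped. Their means gave 65.3% ± 0.355 (SD, n = 2). Over the other 8204 sites the same libraries were the high ones, at 53.2% and 49.0%, then 49.5% and 53.3%. That pattern was therefore not particular to Fut8. Single Fut8 sites had means from 25.9% to 98.2%, with a median of 66.0% and the middle 50% between 50.8% and 80.1%. At 165 sites (57.3%) every library read 50% or more, against 33.6% of all listed sites. At 23 sites (7.99%) every library read below 50%, against 31.4% of all. At least 1 library read 100% at 72 sites (25%, against 16.7% of all), while 0 sites read 100% in all 4.

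The middle stretch was the highest of the 3. It stood at 78.9% and 71.6% in the libraries of replicate 1 and at 74.2% and 81.3% in those of replicate 2, a mean of 76.5% ± 1.77 (SD, n = 2). The upstream stretch read 64.5% and 61.6%, then 66.4% and 56.5%, with a mean of 62.2% ± 1.11 (SD, n = 2). The downstream stretch read 59.3% and 57.6%, then 50.9% and 60.9%, with a mean of 57.2% ± 1.81 (SD, n = 2). The libraries of the middle stretch did not overlap with those of either other stretch, whereas the libraries of the upstream and downstream stretches did overlap.

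Within each library the middle stretch exceeded the upstream one, by 14.3 points ± 2.89, and the downstream one, by 19.3 points ± 3.58 (SD, n = 2 for both). The upstream stretch exceeded the downstream one by 5.06 points ± 0.693 (SD, n = 2), but in 3 of 4 libraries only. The library differences were 5.20 and 3.94 points in replicate 1 and 15.4 and -4.35 points in replicate 2, so they spread far more than the SD of the biological means. The differences are given beside their spread and without a p-value. In the upstream stretch the technical libraries of replicate 2 lay farther apart, at 66.4% and 56.5%, than the 2 biological means, at 63.0% and 61.4%.

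Levels changed sharply inside the middle stretch. Its first 18 sites are the ones that match the sequences printed first. They read 33.4% and 34.4% in replicate 1 and 36.0% and 42.3% in replicate 2, a mean of 36.5% ± 3.70 (SD, n = 2). The next 7 sites, from 77280820 to 77280851, read 100% and 63.3%, then 77.0% and 85.2%, with a mean of 81.4% ± 0.349 (SD, n = 2). That small SD hides a gap of technical libraries, since both biological means happened to lie near each other. The last 80 sites, from 77281134 to 77281496, read 87.3% and 80.6%, then 82.5% and 89.8%, with a mean of 85.1% ± 1.53 (SD, n = 2).

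In every library, then, the mean of the first 18 sites lay below that of the last 80, and the library means of those groups did not overlap. Single sites did overlap: 77280688, among the first 18, had a mean of 57.0%, above the dip given below. The 17 sites of the last group that match the LOC115487412 window stood higher still, at 88.3% and 89.4%, then 87.3% and 95.1%. The highest Fut8 site, 77281201, lay before this run, within the last 80 sites, and read 100% in 3 libraries and 92.9% in the remaining one. Levels dipped near the end of the stretch: site 77281457 read 22.2%, 30%, 46.2% and 33.3%, the lowest mean of the last 80 sites at 32.9%. Its neighbours 77281447 and 77281453 had means of 46.5% and 39.0%, so the dip spanned several sites.

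**Figure D2:**
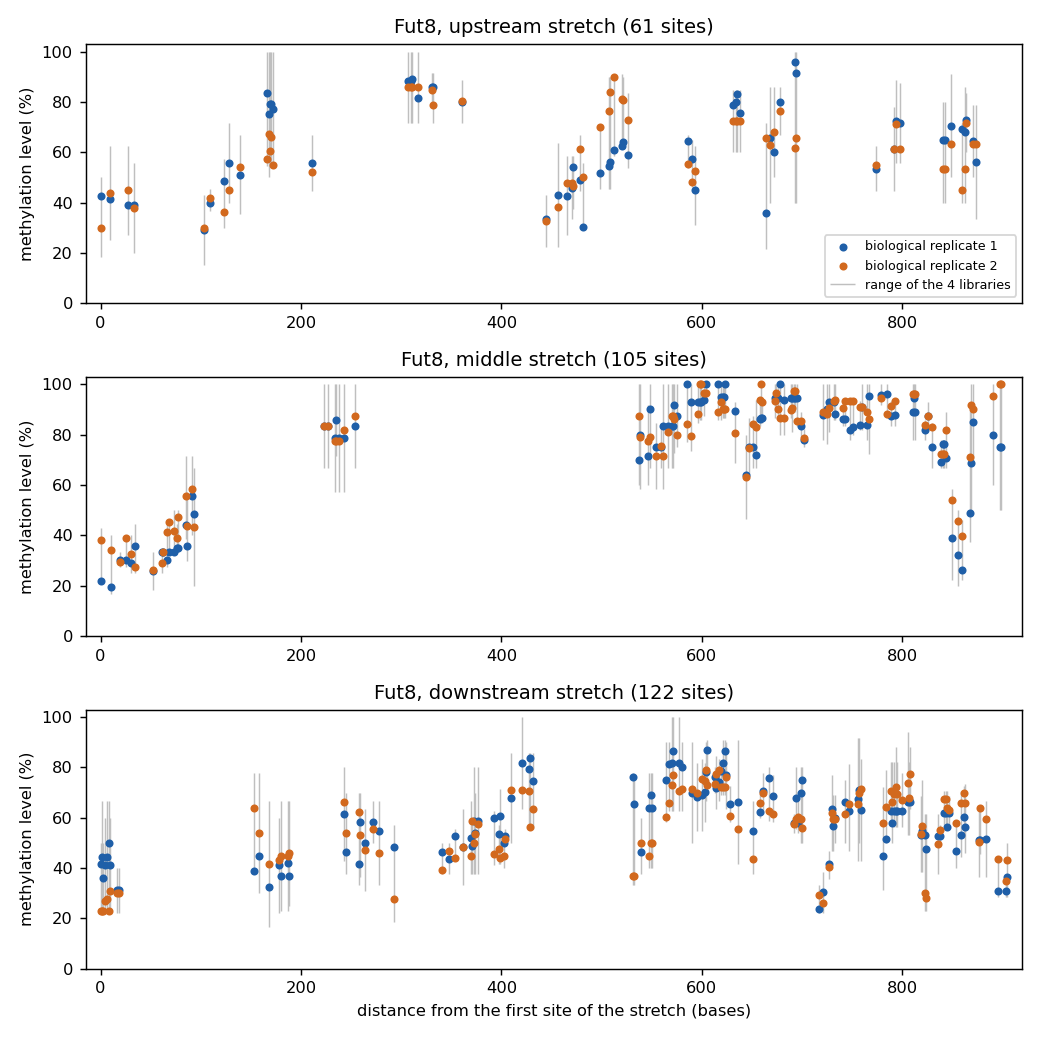
Methylation level in percent (vertical axis) of every listed Fut8 site against its distance in bases from the first site of its stretch (horizontal axis), with a panel for each stretch. Blue and orange points are biological replicates 1 and 2 (mean of 2 technical libraries) and grey lines the range of the 4 libraries; the first 18 sites of the middle stretch average 36.5% and the last 80 average 85.1%.

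The downstream stretch held most of its sites at middle levels. Its first 9 sites, packed into 19 bases, read 55.6% and 24.7% in replicate 1 and 27.2% and 25.7% in replicate 2, so 1 library stood apart, and the mean was 33.3% ± 9.68 (SD, n = 2). Without that library it was 25.6%. The other 113 sites read 59.6% and 60.3%, then 52.8% and 63.7%, a mean of 59.1% ± 1.18 (SD, n = 2). The 19 sites on the Gm34353 match averaged 55.6% ± 2.45 and the 15 on the A230098N10Rik match 58.9% ± 5.00 (SD, n = 2 for both). Its highest site, 77382298, had a mean of 81.7%, and its lowest, 77382444, a mean of 26.4%.

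Upstream, the highest sites were 77272458, 77272461 and 77272462, with means of 87.0%, 87.0% and 87.5%. The first pair had the same value in each library: 90.9%, 85.7%, 71.4% and 100%. The lowest site, 77272254, read 15.0%, 42.9%, 36.4% and 23.1%, a mean of 29.3%. Sites 77272844 and 77272845 varied most of all Fut8 sites, each with a range of 60 points over the libraries. Their low reading of 40% came from technical library 2 of replicate 2, which was also the lowest library of the whole upstream stretch. At the other extreme, 77280659 in the middle stretch read 33.3% in all 4 libraries.

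**Figure D3:**
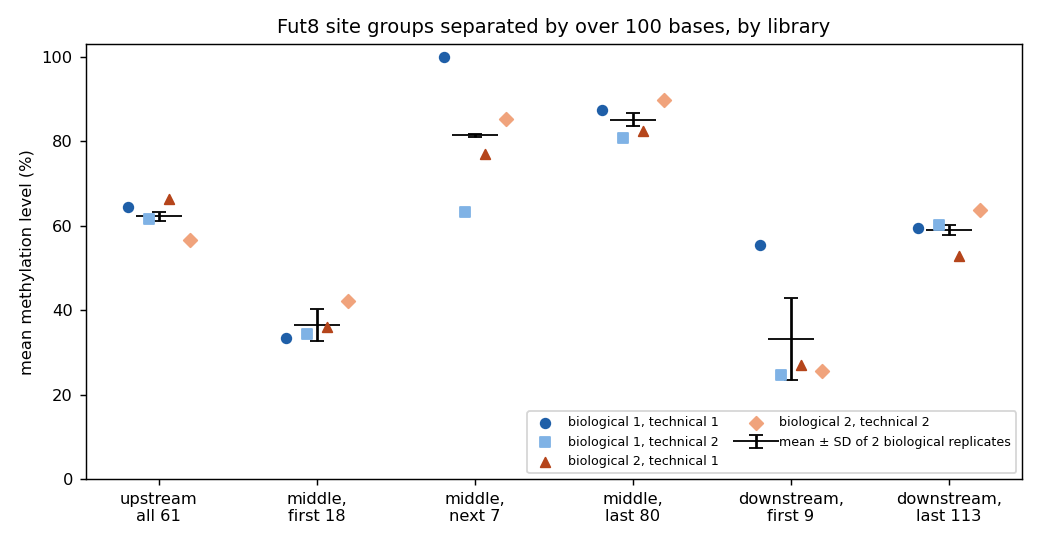
Mean methylation level in percent (vertical axis) of 6 groups of Fut8 sites that lie over 100 bases apart (horizontal axis). Coloured points are the 4 libraries, black lines and bars give the mean and SD over 2 biological replicates; the first 9 sites of the downstream stretch have 1 library at 55.6% and the others between 24.7% and 27.2%.

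Biological replicates separated at fewer Fut8 sites than in the table as a whole. At 53 Fut8 sites (18.4%) both technical libraries of one replicate exceeded both of the other, against 30.4% of all listed sites. Replicate 1 was the higher at 26 of them and replicate 2 at 27, where the share over all sites was 14.7% and 15.7%. In the downstream stretch it was replicate 1 at 16 of 21 such sites, and in the middle stretch replicate 2 at 14 of 20. Neighbouring sites are not independent, so these are not separate observations. The means of replicates 1 and 2 lay close, at 58.4% and 55.9% downstream and at 75.2% and 77.7% in the middle. The deposited columns name each library by 2 numbers, and the first was read as the biological replicate. Read the other way round, 88 Fut8 sites (30.6%) separated, against 26.3% of all sites, so the count depends on that reading and its position against the background turns with it.

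Site levels correlated more between libraries in the middle stretch than in the other stretches. The middle stretch joins groups of unlike level, 36.5% over its first 18 sites and 85.1% over its last 80. Correlations within those groups were not computed. Across sites, the levels in any 2 libraries had a Pearson's r of 0.736 to 0.902 in the middle stretch (105 sites), of 0.376 to 0.506 in the upstream stretch (61 sites) and of 0.266 to 0.662 in the downstream stretch (122 sites). These are correlations across sites that share reads and libraries, so the sites are not independent. Technical pairs differed by 15.5 points on average over all Fut8 sites and biological pairs by 14.0 points. Libraries of the same biological replicate were thus no closer to each other than those of different replicates.

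Sites were crowded. Of 288, 281 (97.6%) had another listed site within 10 bases, against 93.6% of the other listed sites. Density was 6.97 sites per 100 bases upstream, 11.7 in the middle and 13.5 downstream, where the median over the 146 stretches of 10 or more sites in the table was 11.1. Directly following positions made up 45 pairs and 8 runs of 3, and no longer run occurred. Of 61 neighbours 1 base apart, 6 (9.84%) had the same value in all 4 libraries, against 12.7% in the rest of the table. Of 176 neighbours 2 to 10 bases apart it was 5 (2.84%, against 4.24%). Of 45 neighbours 11 to 100 bases apart it was 0, against 0.559% in the rest of the table. At so low a share, this 0 is no result about Fut8.

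Spacing of the downstream stretch recurred in another gene. Laid over every other stretch of 10 or more sites (145), in both directions, its 122 sites coincided best with 220 sites of Ulbp1, a ligand of the receptor NKG2D, at chr10:7450607-7452869. Mirrored, 54 positions were identical, which is 44.3% of the Fut8 and 24.5% of the Ulbp1 sites, and the median over the 145 stretches was 13 positions. The next best partners, Igh and a stretch outside genes on chromosome 6, shared 35 positions each. Long partners coincide more by their length alone: among the 171 pairs of stretches in the table with 100 or more sites in both, this pair was the 10th by shared positions. Over those pairs the share of the smaller stretch had a median of 23.1% and reached 65.6%, so coincidence of this size was not particular to Fut8. Ulbp1 lies on the minus strand, so the mirrored order also runs in the direction of its transcript. Best counts were 22 positions for the upstream stretch, with Il1rl1 and with Gpr141, and 33 for the middle stretch, with the stretch on chromosome 6. Among the 3 Fut8 stretches, 15 to 25 positions coincided.

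Shared spacing did not come with a shared level. At the 54 positions Fut8 read 59.9% and 63.6%, then 50.9% and 59.5%, a mean of 58.5% ± 4.62 (SD, n = 2). Ulbp1 read 29.6% and 19.8%, then 27.7% and 26.3%, a mean of 25.9% ± 1.62 (SD, n = 2). The libraries of the genes did not overlap, and Fut8 was higher at 47 of 54 positions. The whole stretches also lay apart, at 57.2% in Fut8 and 30.6% in Ulbp1. The gap was therefore not particular to the shared positions. Across the 54 positions the correlation of levels was negative (Pearson's r -0.587, Spearman's rho -0.446), as a description over neighbouring sites of the same libraries. The first 9 Fut8 sites, at 33.3%, belong to the shared positions, and the 7 positions where Ulbp1 was the higher all lay among them. So did the lowest Fut8 mean of the 54, 29.6%, and the highest Ulbp1 mean, 38.4%. Without these 9 positions the coefficients were not computed, so an opposite run over the others is not shown. The pair was found by search in these data, so these values are not tested.

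**Figure D4:**
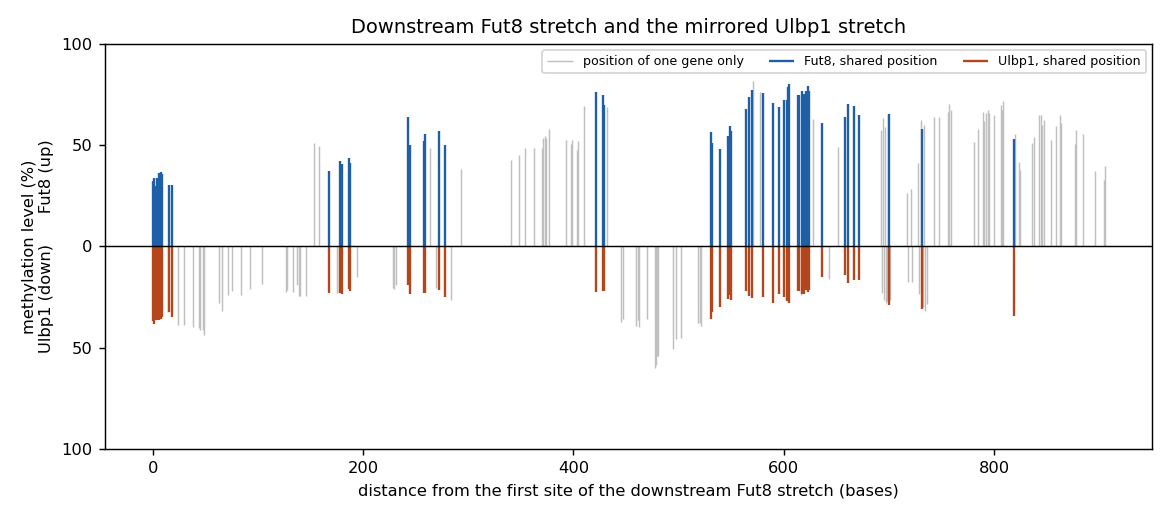
Methylation level in percent of the downstream Fut8 stretch (bars up) and of the mirrored Ulbp1 stretch (bars down) against distance in bases from the first Fut8 site, each bar being the mean of 4 libraries at a site. Coloured bars are the 54 positions that coincide, with means of 58.5% in Fut8 and 25.9% in Ulbp1, and grey bars are positions listed in 1 gene only.

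Against the rest of the table, Fut8 sites read higher in each library, 65.3% compared with 51.3% ± 0.172 (SD, n = 2) over the other 8204 sites. By number of sites Fut8 was the 6th of 110 genes, and by level the 9th of the 31 genes with 50 or more sites. The genes most like it, by the root mean square difference of the 4 library means, were Igh at 1.36 points, Pde1c at 3.48 points and 2010315B03Rik at 4.05 points. Igh, the immunoglobulin heavy chain locus, stood at 65.5% ± 1.02 and Pde1c, a cyclic nucleotide phosphodiesterase, at 68.7% ± 0.187 (SD, n = 2 for both). They were picked for this likeness, which says nothing about shared function. The 10 genes with the most sites ran from 30.7% for Ulbp1 to 90.8% for Rab27b.

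**Figure D5:**
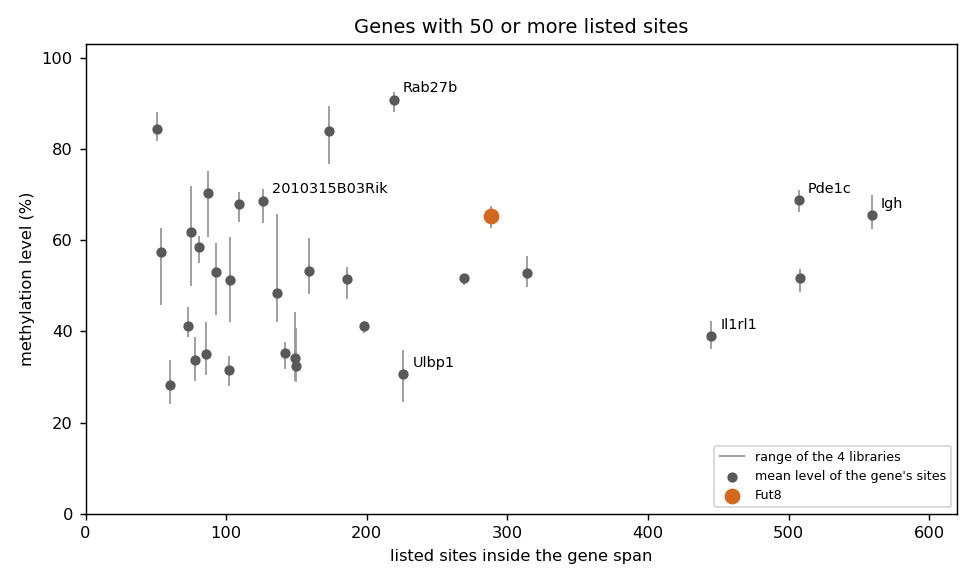
Mean methylation level in percent (vertical axis) against the number of listed sites (horizontal axis) for the 31 genes with 50 or more sites; dots are gene means, grey lines the range of the 4 libraries and the orange dot is Fut8, at 288 sites and 65.3%. Igh and Pde1c have more sites at nearly the same level, and Ulbp1 lies at 30.7%.

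Few genes of any kind were listed: 110 of 49997 RefSeq genes (0.220%) had a site, so lists of this length would mostly be empty, and the counts below are no result about the pathway. Of 10 fucosyltransferases Fut8 was the single one with sites. None of 8 genes of GDP-fucose supply and fucose removal had a site, nor any of 16 genes of N-glycan trimming and branching, among them Mgat1, whose product Fut8 needs as a substrate. The same held for 11 genes that add terminal galactose and sialic acid and for 23 genes of the lipid-linked precursor and its transfer to protein. Of 10 receptors and adhesion molecules known to carry core fucose, Tgfbr1, a TGF-β receptor, had 4 sites at 20.6% ± 3.06 (SD, n = 2). Genes absent from the list may have had too few reads or levels under its minimum, and these counts do not show that they lacked modified cytosines.

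Against the same background, the 3 nearest genes on each side, 5 long noncoding RNAs and a pseudogene, had 0 sites. So did the 5 genes that overlap its span, among them the pseudogene Gm19234, which ends 8.42 kb before the downstream stretch. Since the data are not expression values, the labelled cell type could not be checked against its markers; of 14 mast cell genes, Il1rl1 had 445 sites and Cpa3 and Hpgds had 1 each.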

How the data were processed

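Poly(A) RNA, freed of DNA and mixed with a lambda RNA control, was bisulfite converted, and stranded paired-end libraries were sequenced, per the labels' protocols. The builds named in the submitters' processing notes are mm10 and GRCm38. No aligner, site caller, coverage minimum or conversion rate is given in the sources used here. Per the file headers, the deposited values are a methylation rate per site and library, a fraction from 0 to 1 and was multiplied to percent. It has no strand or read number, so depth and the precision of a site are unknown. The first number of a column name was read as the biological replicate. Technical libraries were averaged first. Sites up to 500 bases apart formed a stretch. No significance test was run: wild-type levels were not analysed, and the gene was chosen on these values. Members, lists and settings were chosen with earlier results of these data known. By the rule for named genes, Fut8 is given in full, with the 3 most like genes of 50 or more sites and any list member with a site; LOC115487412, Gm34353, A230098N10Rik, 1700019D03Rik and Ulbp1 were named after their values were seen. Of 32851 RefSeq start windows, 32841 with 300 unambiguous bases were searched. On simulated sites the window search found the strand in 40 of 40 runs, against 3000 windows, and the search between stretches found 20 of 20 mirrored pairs. The simulated runs were drawn from the searched windows themselves, and the pairs were planted. Recovery thus checks the code and says nothing about how reliable the matches reported here are. Python 3.11.15, numpy 2.4.6, pandas 2.3.3 and matplotlib 3.10.9 were used.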

Additional observations from a re-analysis of the deposited data

Results flagged for a closer look

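For all Fut8 sites, the stretches and their parts, 9 values in all, the 4 libraries were searched for one that lay far from the rest. It was found once, and chance alone picks out about 1 in 20 groups. At the first 9 sites of the downstream stretch, the mean was 55.6% in technical library 1 of biological replicate 1 and 24.7% to 27.2% in the other libraries. Divided by the range of all 4, the gap was 0.919. At site 77381728 that library read 66.7% and the others 22.2% to 23.1%. Without that library the mean of these sites was 25.6% in place of 33.3%. Its depth at these sites is unknown.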

How the results depend on the processing

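The mean level of the Fut8 sites, 65.3%, became 56.7% over the 7 sites with no other within 10 bases and 66.0% over the 282 sites at 20% or more in every library. Over such isolated sites the stretches stood at 54.7% (upstream, 5 sites), 85.4% (middle, 1 site) and 38.1% (downstream, 1 site). As medians over sites the middle stretch stood at 83.2%, and the differences between stretches were 20.7 points (middle minus upstream), 24.4 points (middle minus downstream) and 3.64 points (upstream minus downstream). Merging positions within 10 bases left 51 sites, and joining up to 100 bases gave 6 groups in place of 3 stretches. With the other reading of the column names, 88 sites separated in place of 53, and the SD of the mean level was 0.274. Leaving out a biological replicate gave 65.0% to 65.5% for the mean level, 61.4% to 63.0% upstream, 75.2% to 77.7% in the middle and 55.9% to 58.4% downstream, and with 2 replicates it moves a value by less than the SD by construction. The 71 sites in matched runs became 54 at a score of 0.8, 104 with runs of up to 60 bases and 53 with up to 120; the search, these settings and the count of 65 Ulbp1 positions within 1 base were chosen after seeing the data. The stretch differences kept their sign as medians and without either replicate; the other settings were not run for them. The cause of each change was not tested. No paired analysis was possible because only Tet2-deficient libraries had levels here.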
